A study of Mus musculus with 54 samples.

Results

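Among single bone marrow progenitors sorted without a further gate, 210 of 2732 cells (7.69%, exact 95% binomial interval 6.72 to 8.75%) met a rule on 7 genes. These cells carried transcripts of Apoe or Gata2 and stayed within upper limits on genes that mark the committed erythroid, granulocyte, basophil and platelet directions. They are called Apoe Gata2 cells here. A cell was counted when its well had been sorted with 1 cell and held at least 500 unique molecular identifiers (UMIs, each standing for 1 captured mRNA molecule), when Apoe and Gata2 together reached 3 or more UMIs, and when it stayed within 4 upper limits. These were Pf4 at 3 or fewer UMIs, Prss34 plus Mcpt8 at 2 or fewer, and Car1 and Elane each below 0.2% of the well's UMIs. The whole series held 8399 cells of that depth.

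The cells came from wild-type C57BL/6 mice 6 to 8 weeks old. Marrow was enriched for cKit and sorted as lineage-negative, cKit-positive, Sca1-negative, the fraction that holds committed myeloid and erythroid progenitors. The single-cell method was MARS-seq, which counts the 3' ends of mRNA in plate wells and amplifies 192 wells as 1 pool. All 16 unsorted pools carry 1 mouse identifier, so every p-value below measures only the spread between pools, which may be technical. Also used were 3 gates of common myeloid progenitors (CMP) from the same strain and age: CD41-positive, Flt3- and Csf1r-positive, and Irf8-GFP- and MHCII-positive, the last from mice carrying an Irf8-GFP allele.

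Gata2 is a zinc-finger transcription factor that acts in haematopoietic stem cells and early progenitors, and it is replaced by Gata1 as erythroid and megakaryocyte cells mature. Apoe encodes apolipoprotein E, a lipid carrier best known from liver and macrophages. Elane encodes neutrophil elastase and Car1 a carbonic anhydrase of the red cell line, Pf4 encodes a platelet chemokine, and Prss34 and Mcpt8 are basophil proteases.

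The 16 unsorted pools held between 482844 and 854479 UMIs each. Apoe Gata2 cells were shallow: their median was 1365.5 UMIs, against 3278.5 in the other unsorted cells, and it was lower in 16 of 16 pools. Of the 210 cells, 63 held under 1000 UMIs. Cells were also thinned to a common number of UMIs. At 1000 UMIs the rule was applied again to the thinned counts, which left 88 cells, and few genes could be tested. For most results below the part of this depth difference was therefore not tested. In 32 wells sorted without a cell the highest total was 75 UMIs, and none of their 1305 UMIs were from Apoe or Gata2. All 16 pools use the same 192 cell barcodes by design, and no pair of pool and cell barcode was used by more than 1 well of a sequencing batch. The 17 macrophage genes measured summed to 38 UMIs in the 210 cells, or 98.5 CPM (UMIs scaled to a fixed total of UMIs, the same for every set of cells; 0 to 207 over the pools), and to 87.4 CPM in the other cells within the limits (29.4 to 137). Of these genes 6 were at 0 in Apoe Gata2 cells, among them C1qa, Emr1 and Vcam1, while C1qb gave 5 UMIs (13.0 against 7.79 CPM), C1qc 4 (10.4 against 1.80 CPM) and Cd68 4 (10.4 against 32.3 CPM). The part of macrophage RNA in the results was not tested.

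The upstream sequences of 4 genes that define or lead these cells are shown, 250 bases 5' of the annotated start, from RefSeq on build GRCm38.p6 and printed 5′ to 3′. Apoe and Gata2 chose the cells, and Muc13 had the highest ratio of the named genes against others within the limits and F2r against all other unsorted cells. Capitals mark a match to a RUNX motif.
Apoe, chr7:19699189-19699438, minus strand: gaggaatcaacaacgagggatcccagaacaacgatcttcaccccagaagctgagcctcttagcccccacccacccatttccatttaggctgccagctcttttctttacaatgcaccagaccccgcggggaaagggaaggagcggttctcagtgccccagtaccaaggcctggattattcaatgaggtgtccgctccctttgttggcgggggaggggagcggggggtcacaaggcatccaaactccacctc
Gata2, chr6:88193641-88193890, plus strand: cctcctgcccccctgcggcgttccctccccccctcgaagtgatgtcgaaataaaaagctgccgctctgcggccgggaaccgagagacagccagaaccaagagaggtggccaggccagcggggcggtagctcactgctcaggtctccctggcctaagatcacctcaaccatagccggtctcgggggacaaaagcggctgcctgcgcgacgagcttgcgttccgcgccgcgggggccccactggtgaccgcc
Muc13, chr16:33793787-33794036, plus strand: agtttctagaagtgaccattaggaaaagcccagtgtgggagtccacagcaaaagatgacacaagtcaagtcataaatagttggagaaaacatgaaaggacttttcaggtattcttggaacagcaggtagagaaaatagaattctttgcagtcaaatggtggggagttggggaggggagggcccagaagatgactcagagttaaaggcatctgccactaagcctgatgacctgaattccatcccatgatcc
F2r, chr13:95618467-95618716, minus strand: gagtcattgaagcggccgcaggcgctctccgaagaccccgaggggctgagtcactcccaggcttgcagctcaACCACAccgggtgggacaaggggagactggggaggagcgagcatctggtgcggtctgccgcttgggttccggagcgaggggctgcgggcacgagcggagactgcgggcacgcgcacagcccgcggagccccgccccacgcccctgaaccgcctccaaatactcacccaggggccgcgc
Among these 4 sequences the RUNX letters TGTGGT, or ACCACA on the other strand, occurred once, upstream of F2r, and 14% of 32851 mouse promoter windows of this length hold a match. The GATA letters GATAA or TTATC, held by 22.6% of windows, and the ETS letters CGGAAG or CTTCCG, held by 13.6%, had no match in them, and the matches searched did not overlap.

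The 7 genes of the rule are described first, with no test. Apoe gave 945 UMIs in the 210 cells, or 2449 CPM, and ranged from 879 to 3970 CPM over the 16 pools (median 2585); the other unsorted cells stood at 227 CPM. Gata2 gave 308 UMIs, 798 CPM against 73.8 CPM. Of the 210 cells, 141 carried at least 1 UMI of both genes, 66 had Apoe alone and 3 had Gata2 alone. At the edge of the rule, 49 cells had exactly 3 UMIs of the pair and 64 cells within the same limits had 2. Muc13 stood at 353 CPM in the former and 292 CPM in the latter, while cells of that kind with no Apoe or Gata2 UMI stood at 104 CPM. F2r was at 41.6 CPM at 3 UMIs, 83.3 CPM at 2 and 9.59 CPM at 0. Further inside, at 4 UMIs and at 5 or more, F2r stood at 202 and 172 CPM, and these levels rest on few F2r UMIs (56 in all 210 cells).

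The upper limits left small amounts of the other rule genes. Car1 was detected in 105 of the 210 cells at a level of 570 CPM, against 3360 CPM in the other unsorted cells, and Elane in 93 cells at 383 CPM, against 3559 CPM. Pf4 was found in 12 cells and stood at 44.0 CPM, against 47.8 CPM in the others, which include the Pf4-high cells, and 14.4 CPM in the others within the limits. Prss34 stood at 25.9 CPM (10 UMIs), against 32.2 CPM in the others and 3.59 CPM in those within the limits, and Mcpt8 at 28.5 CPM (11 UMIs), against 24.2 and 10.8 CPM. The 105 cells with no Car1 UMI stood at 1096 CPM of Car2, a second carbonic anhydrase of the red cell line, and the 105 with Car1 at 3051 CPM. In the same order Mpo, the myeloperoxidase of neutrophil granules, stood at 4492 and 3072 CPM. Median surface CD34 was 256 and 148 in the same 2 sets.

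The share of Apoe Gata2 cells differed little between the pools. It averaged 7.79% ± 1.79 (SD, n = 16 pools), with 9 to 16 cells in each pool and a range from 5.23 to 11.8%. Within sequencing batches it was 7.55% ± 1.07 (4 pools) and 7.87% ± 2.01 (12 pools). The share moved with the rule: it averaged 10.1% with the pair at 2 or more UMIs, 4.44% at 5 or more, and 3.68% when cells were first thinned to 1000 UMIs. Under the same gene rule the CD41-positive CMP gate held 94 of 336 cells (28.0%; 25.7 and 30.2% in its 2 pools). The Flt3- and Csf1r-positive gate held 2 of 380 (0.526%), and the Irf8-GFP- and MHCII-positive gate 57 of 743 (7.67%). Each gate is 1 mouse identifier, so no test between groups was made.

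**Figure D1:**
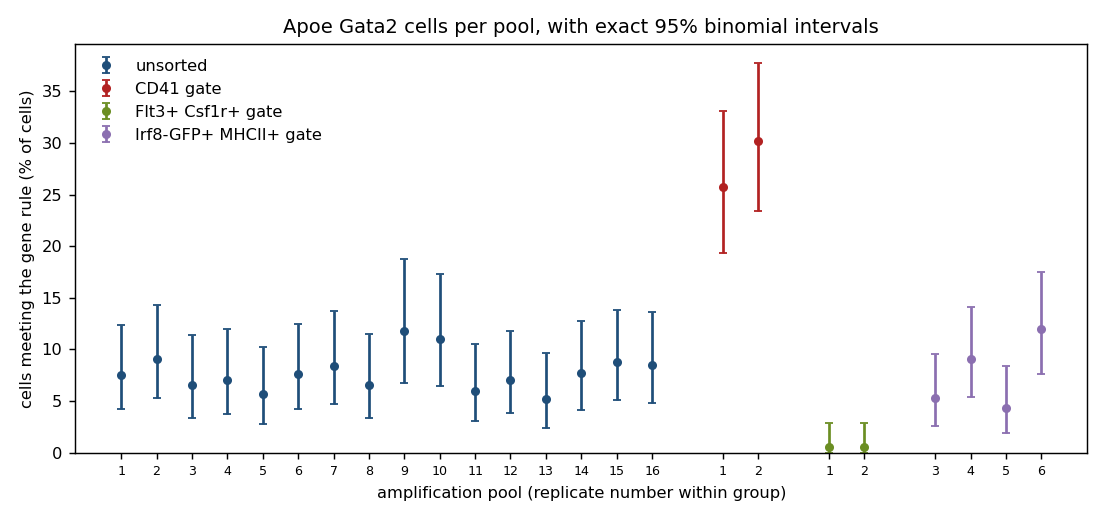
Share of cells meeting the gene rule (y axis, percent of cells) in each amplification pool (x axis, replicate number within group), with exact 95% binomial intervals that cover counting error only. The 16 unsorted pools lie between 5.23 and 11.8%, the 2 CD41 pools at 25.7 and 30.2%.

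In the first comparison, Apoe Gata2 cells were set against the other unsorted cells that keep the same 4 limits but carry under 3 UMIs of the pair (593 cells), so that the limits act on both sides. It asks what goes with Apoe and Gata2 among cells within these limits. No limit acts on monocyte or dendritic genes, so the other side is not a set of uncommitted cells. Thinned to 500 UMIs, its cells held a mean of 2.86 and up to 65 UMIs of the monocyte and dendritic gene list. Apoe Gata2 cells held a mean of 0.614 and up to 5. For the erythroid list the highest were 22 and 14 UMIs. UMIs were summed per pool and side, and edgeR's quasi-likelihood test, with the pool as a block, was run over 15 pools with at least 10 cells on each side. Replicate 13, with 9 Apoe Gata2 cells, was left out by that minimum. Of 1249 genes tested, 132 were higher (10.6%) and 85 lower (6.81%) in Apoe Gata2 cells at a Benjamini-Hochberg adjusted p under 0.05, as are all calls below. A gene could pass the filter on low counts by its level on either side alone, so counts of calls within a gene list depend in part on the filter. Levels are TMM-scaled CPM. The cells were chosen by 7 genes of the same wells, so the test describes what goes with that choice, and the comparisons below share the Apoe Gata2 cells.

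Muc13, a transmembrane mucin, ran from 267 to 939 CPM over the 15 pools of Apoe Gata2 cells (median 468) and from 9.80 to 266 CPM in the other cells (median 123). No pool value overlapped between the sides. The log2 ratio was 2.09 ± 0.21 (SE, adjusted p = 2.05e-11).
Srgn, which encodes serglycin, the proteoglycan core of secretory granules, ran from 2195 to 4638 CPM (median 3439) against 862 to 1786 CPM (median 1165). These sides did not overlap either, with a log2 ratio of 1.50 ± 0.09 (adjusted p = 5.56e-19). Gpr56, an adhesion receptor expressed in stem and progenitor cells, ran from 778 to 2209 CPM (median 1123) against 273 to 677 CPM (median 412) and was higher by 1.48 ± 0.11 on the log2 scale (adjusted p = 4.93e-15). It too separated the sides in every pool. Txnip, a thioredoxin-binding protein, was higher by 1.91, Mfsd2b, a sphingosine-1-phosphate exporter of red cells and platelets, by 1.49, and Nfe2, a transcription factor of megakaryocytes and red cells, by 1.36. Ptprcap (1.34), Vamp5 (1.25), G6pc3 (1.20) and Runx1 (1.17) completed the highest 10 by the naming rule, all higher in 15 of 15 pools.

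Irf8, the transcription factor of monocyte and dendritic fate, was the lowest. It ran from 0 to 85.5 CPM in Apoe Gata2 cells (median 25.5, 10 UMIs in all) and from 207 to 707 CPM in the others (median 420.1), a log2 ratio of -3.76 ± 0.29 (adjusted p = 7.33e-15). The 2 sides did not overlap in any pool. Prdx2, an antioxidant enzyme abundant in red cells, was lower by a log2 ratio of -0.81. E2f4 (-0.83), Tmem14c (-0.80), Atp5g3 (-0.42) and Ppm1g (-0.39) were also lower in 15 of 15 pools.

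**Figure D2:**
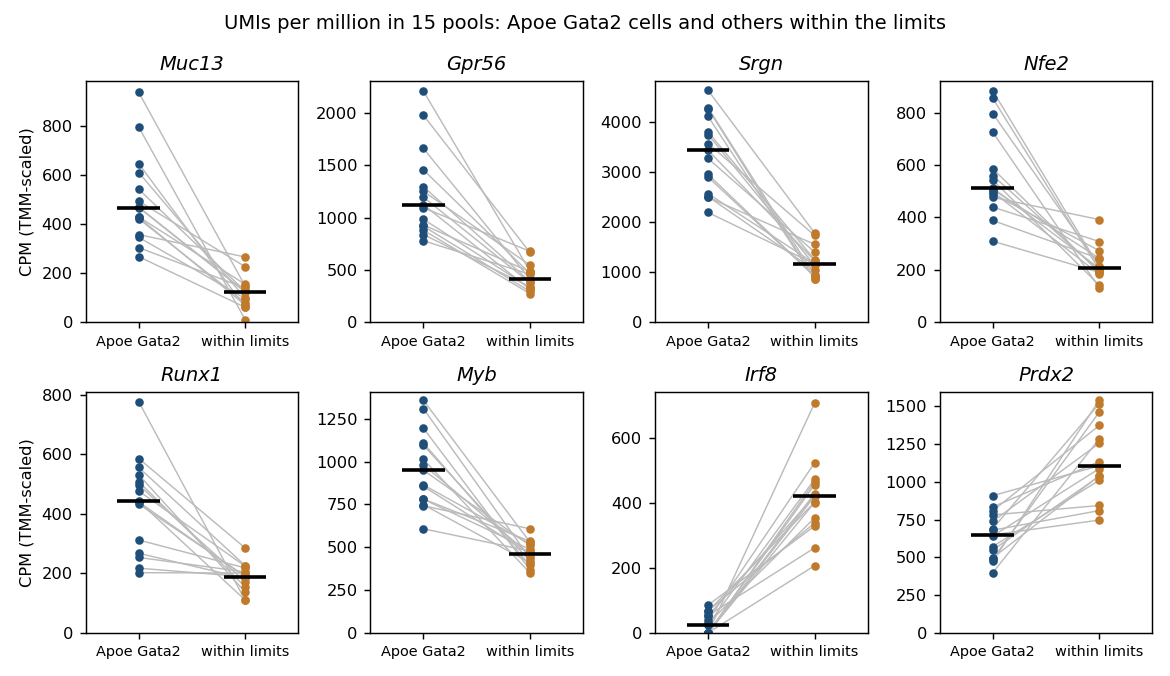
Level of 8 genes (y axis, TMM-scaled CPM, from 0) in 15 unsorted pools. Each point is 1 pool, grey lines join the 2 sides of a pool and black bars are medians. Muc13, Gpr56, Srgn and Myb separate Apoe Gata2 cells from others within the limits without overlap, and Irf8 does so in the opposite direction.

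Transcription factors of stem and early progenitor cells were tested for 10 of 22 list members: 4 rose and none fell, with a median log2 ratio of 0.39, against -0.02 over all genes tested. Myb, which maintains progenitor growth, ran from 607 to 1357 CPM (median 949.8) against 350.1 to 607 CPM (median 462; log2 ratio 1.07, adjusted p = 3.34e-10). Runx1 (1.17), Cbfa2t3 (0.67), a corepressor that binds Gata complexes, and Etv6 (0.61) also rose. Myc (0.18), Lmo2 (0.05) and Sox4 (0.37) did not pass the test. Etv6 lost its call in 4 of 16 fits that each left out 1 pool.

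Of the Gata factor partners and targets, 5 of 10 tested rose and none fell (15 in the list, median log2 ratio 0.51). Besides Nfe2, Runx1 and Cbfa2t3 these were Zfpm1, the cofactor of Gata1 known as FOG1, at 0.69 ± 0.14, and Gata1 itself at 0.61 ± 0.20 (adjusted p = 0.0273). Gata1 ran from 0 to 428 CPM in Apoe Gata2 cells (median 302) and from 50.5 to 316 CPM in the others (median 168), so its pools overlapped, and its call was lost in 6 of the 16 fits that left out 1 pool. Klf1, the erythroid factor downstream of Gata1, had a log2 ratio of -0.35 and did not pass (adjusted p = 0.119).

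Genes of the red cell line went the other way. Of 12 erythroid genes tested (30 in the list), 7 fell and 1, Mfsd2b, rose, with a median of -0.73. Car2 ran from 664 to 3885 CPM in Apoe Gata2 cells (median 1711) and from 1381 to 5019 CPM in the others (median 3009), overlapping but lower in 14 of 15 pools (log2 ratio -0.67). Rhd, a blood group protein, fell by 1.33, Sphk1, a sphingosine kinase, by 1.22, and Blvrb, biliverdin reductase B, by 0.79 on the log2 scale. Of 6 heme synthesis genes tested (15 in the list), 5 fell and none rose, among them Cpox (-1.14) and Tmem14c (-0.80). Alas1 (-0.60) and Alad (-0.49), 2 of these 5, did not pass with DESeq2. Their calls were lost in 12 and 9 of the 16 fits that left out 1 pool.

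Granule genes of neutrophils were present at a lower level. Of 5 tested (22 in the list) 4 fell and 1 rose. Prtn3, proteinase 3, ran from 338 to 4385 CPM (median 1283) against 1239 to 4765 CPM (median 3046; log2 ratio -0.95), Ctsg, cathepsin G, was at -0.74 and Emb, an adhesion molecule, at -1.50. Mpo ran from 1562 to 7042 CPM (median 3849) against 2272 to 7527 CPM (median 4791), and its small ratio of -0.27 was lost with DESeq2 and in 10 of 16 fits that left out 1 pool. Nkg7, a granule protein of cytotoxic lymphocytes placed in this list, rose by 1.06.
Of the monocyte and dendritic list 3 of 23 members could be tested, Irf8, Psap and Cst3, and all 3 fell.

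Basophil and mast cell genes were tested for 3 of 19 members, and all 3 rose, with a median of 1.50. A gene such as Lmo4 could pass the filter by its level in Apoe Gata2 cells alone, so this count is set in part by the filter. Lmo4, a LIM-domain transcriptional cofactor, ran from 55.2 to 1027 CPM (median 459) against 0 to 202 CPM (median 87.2; log2 ratio 2.27), Ifitm1, an interferon-induced membrane protein, was at 1.35, and Srgn was given above. The other members were too low to test here. Among them the mast and basophil receptor genes Ms4a2 and Fcer1a gave 2 and 1 UMIs in the 210 cells and 0 in the others within the limits. Hdc stood at 264 against 41.3 CPM. The whole list summed to 4568 CPM in Apoe Gata2 cells (2735 to 7015 over the pools), to 1858 CPM in the others within the limits (1011 to 3323) and to 4601 CPM in Elane-high cells, and the part of basophil or mast cell RNA in these results was not tested.

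Surface genes of stem cells were tested for 4 of 19 members. Of these Cd27, at medians of 156 and 167 CPM, was higher in 6 of 15 pools and did not pass. Muc13 rose, and so did the row that joins Kit, the stem cell factor receptor, with another transcript (log2 ratio 0.85). The reads of that row cannot be given to Kit alone. Medians were 468 and 123 CPM for Muc13 and 237 and 123 CPM for the joined row. They could pass the filter largely by their level in Apoe Gata2 cells, so this count is set in part by the filter. Cd34 stood at 211 CPM against 262 CPM, which did not pass (log2 ratio -0.39, adjusted p = 0.242). Nrgn, neurogranin, was the platelet and megakaryocyte gene tested here, of 35 in the list, and rose by 1.57. Its medians were 433 and 125 CPM, so it could pass the filter by its level in Apoe Gata2 cells and does not speak for the list. The platelet chemokine gene Ppbp gave 0 UMIs in the 210 cells, and Vwf, von Willebrand factor, gave 5. The row holding Itga2b, which encodes CD41 and shares the row with other symbols, gave 69 UMIs (179 CPM) in Apoe Gata2 cells and 28.7 CPM in the others.

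Cell cycle genes differed little. Of 11 S phase genes tested, 2 fell (Mcm5, -0.36, and Cdt1, -0.62) and none rose, with a median of -0.27. The call of Cdt1 was lost in 7 of 16 fits that left out 1 pool. Of 9 mitosis genes, 1 fell, Birc5 (survivin, -0.86). Mki67 stood at 377 CPM against 303 CPM, which did not pass. Of the lipoprotein receptor and cholesterol export list 1 gene was tested, Npc2, which carries cholesterol out of lysosomes, and it did not pass (log2 ratio -0.11); no cholesterol synthesis gene passed the filter on low counts. Lymphoid, macrophage, immediate early and other marrow cell lists had no gene that passed it either.

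These counts rest on shallow cells, and thinning chose the cells again by the rule on thinned counts. After thinning each cell to 1000 UMIs, with pools kept at 3 or more cells, 8 genes were higher and 11 lower of 133 tested, and the 4 named genes still testable, of 17, kept their direction. Requiring 5 or more UMIs of the pair left 4 pools, with 27 genes higher and 14 lower. In the pools of 1 sequencing batch 33 were higher and 20 lower, and in those of the other batch 99 and 55. Direction within a batch was largely fixed by the naming rule, which asks for the same direction in every pool. Of the named genes tested, 11 of 15 and 16 of 17 kept their call.

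The second comparison, added after the cells had been counted, set Apoe Gata2 cells against 283 cells that also carried 3 or more UMIs of Apoe and Gata2 but were past the Car1 limit and no other. The limit on Car1 fixes part of the direction of red cell genes here. Over 13 pools and 667 genes, 91 were higher (13.6%) and 64 lower (9.6%) in Apoe Gata2 cells. Vim, the filament protein vimentin, ran from 503 to 1498 CPM (median 987) against 63.7 to 344 CPM (median 147), with no overlap (log2 ratio 2.52 ± 0.18, adjusted p = 3.43e-16). Coro1a, an actin-binding protein of leukocytes, was higher by 2.79, Gpr56 by 1.89 and Dapp1, a signalling adaptor, by 1.78, each in 13 of 13 pools. Cpox ran from 54.8 to 307 CPM (median 193) against 396 to 778 CPM (median 533), again without overlap, and was the lowest, with a log2 ratio of -1.43. Ermap, a red cell adhesion protein, was at -1.42, Abcb4 at -1.11, the metallothionein Mt1 at -1.11 and Klf1 at -1.02, all lower in 13 of 13 pools.

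Granule genes stood higher in Apoe Gata2 cells than in these Car1-high cells. All 3 granule genes tested rose: Mpo ran from 1539 to 7328 CPM (median 3772) against 824 to 1775 CPM (median 1376; log2 ratio 1.49), Prtn3 was at 1.63 and Ctsg at 1.61. Elane was limited alike on both sides. If every well had carried the UMIs of its pool's empty wells, these would have made up 4.35% of the Mpo UMIs of Apoe Gata2 cells and 6.46% of those of the Car1-high cells. The same shares were 7.75 and 13.5% for Prtn3 and 6.72 and 11.6% for Ctsg. Prtn3 and Ctsg thus stood lowest in the Car1-high cells, higher in Apoe Gata2 cells and, in the first comparison, highest in the others within the limits; for Mpo the last step was lost with DESeq2.

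Red cell genes fell, a direction that the Car1 limit fixes in part: 8 of 10 erythroid genes and 4 of 4 heme synthesis genes were lower and none higher. Mfsd2b (0.16) and Gfi1b (-0.42) did not pass. Among the Gata partners and targets Nfe2 rose, from 188 to 406 CPM (median 266) in the Car1-high cells to 443 to 931 CPM (median 555), without overlap (log2 ratio 1.06). Gata1 (-0.24), Zfpm1 (-0.08) and Cbfa2t3 (0.03) did not pass the test, so their levels were not told apart between the 2 kinds of cell with Apoe and Gata2. Myb stood at 991 CPM against 996 CPM (log2 ratio 0.03, adjusted p = 0.907), and Myc fell by 0.53 on the log2 scale. Muc13 (1.61) and Srgn (1.56) rose here as well. After thinning to 1000 UMIs 48 genes could be tested, of which 7 were higher and 3 lower, and none of the 10 named genes was among those tested.

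**Figure D3:**
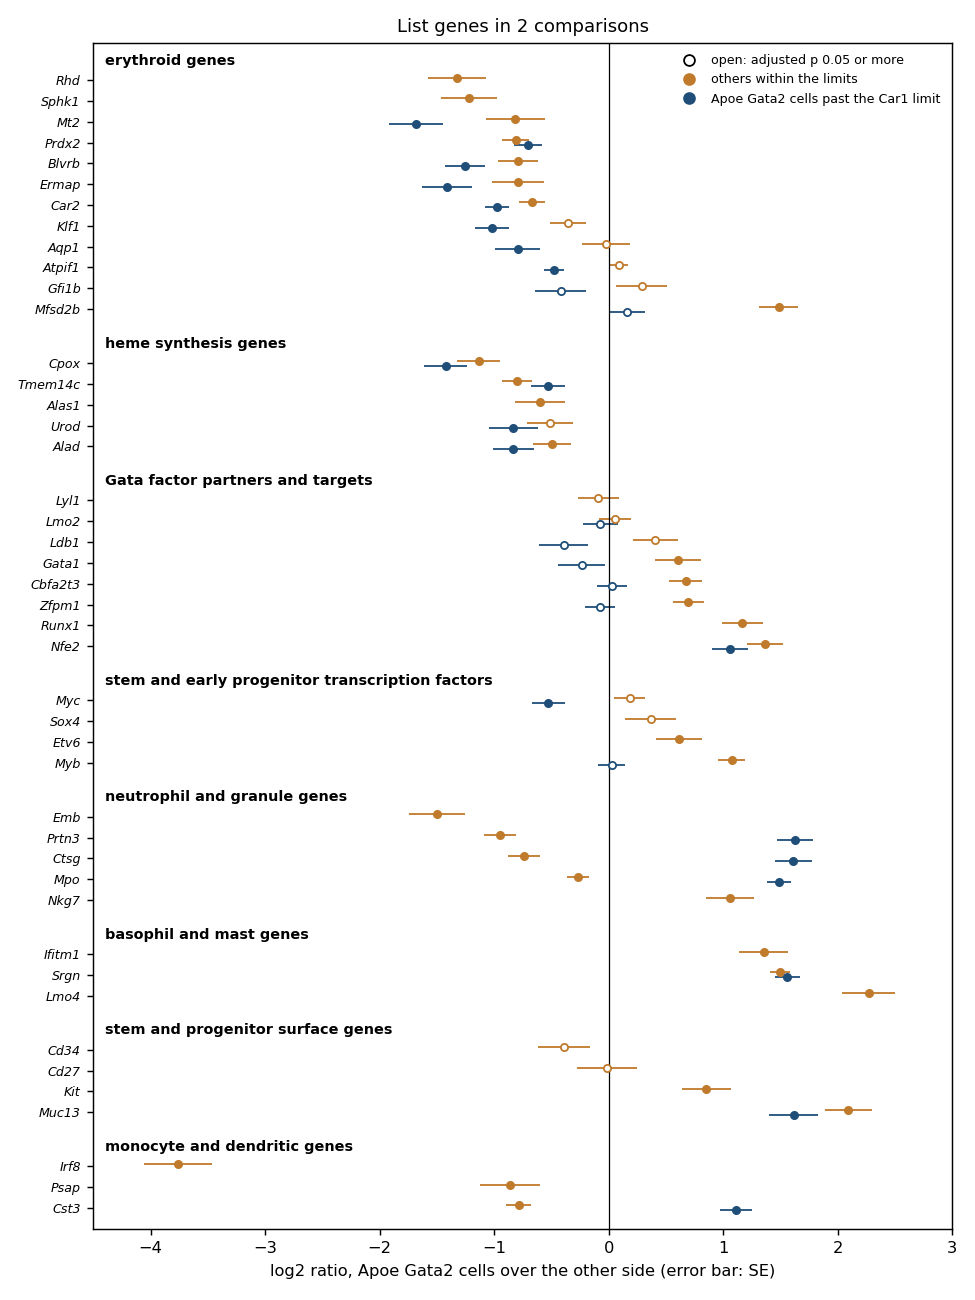
Log2 ratio of list genes (x axis; error bars are standard errors) in Apoe Gata2 cells over others within the limits (15 pools) and over Apoe Gata2 cells past the Car1 limit (13 pools); filled points have an adjusted p under 0.05. The granule genes Mpo, Prtn3 and Ctsg lie on opposite sides of 0 in the 2 comparisons, Gata1 and Zfpm1 are right of 0 only against others within the limits, and red cell and heme genes lie mostly left of 0 in both.

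Detection in single cells was compared after thinning every cell to 500 UMIs. Gpr56 was then seen in 44.3% of Apoe Gata2 cells (exact 95% interval 37.5 to 51.3%), in 24.6% of the others within the limits, in 18.0% of the Apoe Gata2 cells past the Car1 limit and in 8.76% of Elane-high cells. Muc13 was seen in 21.9%, 9.11%, 13.4% and 5.21% of the same 4 sets. Lmo4 was seen in 16.2% of Apoe Gata2 cells and 0.936% of Car1-high cells with under 3 UMIs of the pair. Gata1 was seen in 14.3% of Apoe Gata2 cells, in 18.4% of those past the Car1 limit and in 1.42% of Elane-high cells, which should lack it. Srgn was seen in 76.7% of Apoe Gata2 cells and in 76.0% of Elane-high cells. Unthinned shares for Gpr56 were 74.3%, 53.3%, 62.2% and 34.2% in the order first given, at median depths of 1365.5, 2182, 2479 and 3100 UMIs. The numbers of genes seen at 500 UMIs were alike: 416 ± 7.1 in Apoe Gata2 cells and 413 ± 6.8 in the others within the limits (mean ± SD of 16 pool medians).

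At 500 UMIs, 165 of the 210 cells (78.6%) held at least 1 UMI of the erythroid list and 1 of the granule list, 25 held the erythroid list alone, 18 the granule list alone and 2 neither. Both lists were also seen in 68.5% of the others within the limits, 66.4% of the Apoe Gata2 cells past the Car1 limit and 71.4% of Elane-high cells, so most cells of these sets held both at this depth. The median cell held 3 erythroid and 2 granule UMIs. In the Car1-high Apoe Gata2 cells the medians were 7 and 1, in Elane-high cells 1 and 22. A single UMI can come from free RNA, and its part in these shares was not tested beyond the empty-well values above.

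**Figure D4:**
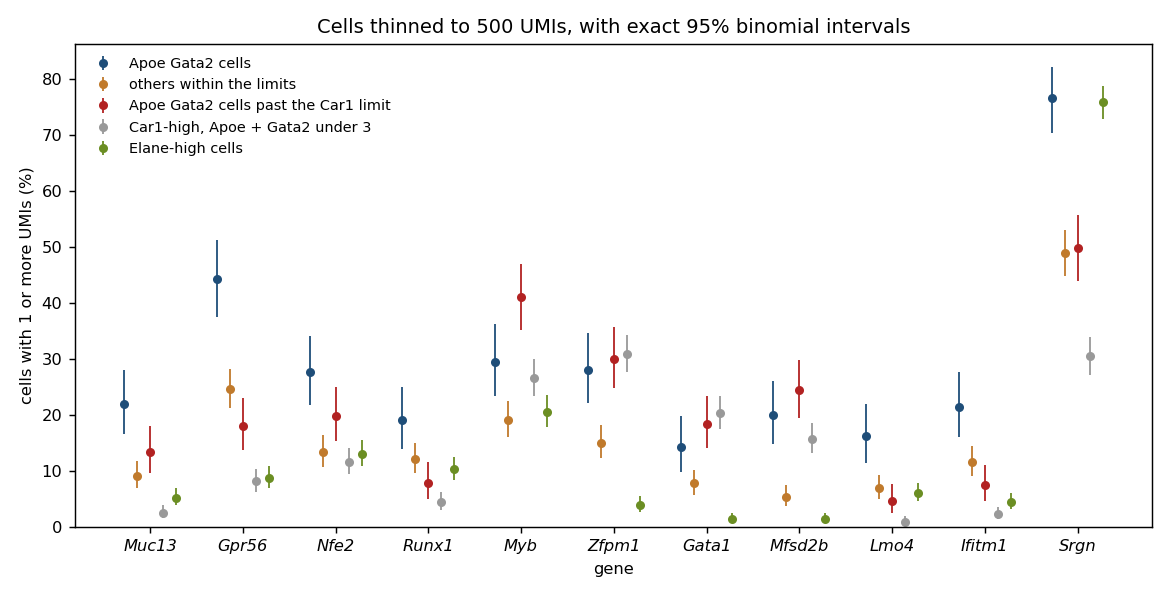
Share of cells with at least 1 UMI of each gene (y axis, percent, exact 95% binomial intervals) after thinning all cells to 500 UMIs, in 5 sets of unsorted cells. Apoe Gata2 cells are highest for Muc13, Gpr56, Nfe2, Runx1, Lmo4 and Ifitm1, while for Srgn they are level with Elane-high cells and for Zfpm1, Gata1 and Mfsd2b near the Car1-high sets.

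Against all other unsorted cells, most of them past the Car1 or the Elane limit, 298 of 4761 genes were higher (6.26%) and 551 lower (11.6%) over 15 pools. The split depends on the scaling: with RLE size factors 395 were higher and 341 lower, and with DESeq2 347 and 265, as the median log2 ratio of all genes was -0.13 with TMM and -0.02 with RLE. F2r, which encodes a thrombin receptor, ran from 56.4 to 345 CPM in Apoe Gata2 cells (median 122). In the rest it ran from 8.52 to 36.4 CPM (median 19.7), without overlap. It had the highest ratio by the naming rule (log2 ratio 2.92 ± 0.30, adjusted p = 1.63e-20). Rab37 (2.63), Muc13 (2.56), Ypel3 (2.13), Gpr56 (2.08), Galnt6 (2.07), Cxxc5 (1.96), Zyx (1.92), Txnip (1.92) and Pafah2 (1.87) followed. The lowest were Ly6c2 (-3.14), Irf8 (-3.10), C3 (-2.92), Ccne1 (-2.86), Hba-a2 (-2.64), Cldn13 (-2.36), 1190002H23Rik (-2.32), Ctse (-2.15), Spnb1 (-2.11) and Myo1d (-2.05), each lower in 15 of 15 pools. Reads of the near-identical copies of Ly6c2 and of the alpha globin Hba-a2 could have been divided between copies by the counting. All 20 kept their direction and call with RLE and with DESeq2. Within the 2 sequencing batches 84 genes were higher and 133 lower in one and 212 and 400 in the other.

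In this comparison, where more genes could be tested, 6 of the 35 platelet and megakaryocyte genes were tested. Of these 5 rose and none fell: F2r, Nrgn (2.12), Cd9 (1.78), the row joining Mef2c with another transcript (1.51) and Rap1b (0.61). F2r, Cd9 and the Mef2c row had medians of 19.7, 34.6 and 29.4 CPM in the rest. They could pass the filter by their level in Apoe Gata2 cells alone, so this count is set in part by the filter. The call of Rap1b was lost with DESeq2 and in 9 of 16 fits that left out 1 pool. Of the stem cell surface list 5 of 7 rose, among them Csf2rb, the shared beta receptor chain (1.14), and Cd27 (1.06). Cd9, at a median of 34.6 CPM in the rest, is in this list as well, so this count too is set in part by the filter. Against the others within the limits Cd27 did not pass, and Csf2rb was not tested. Of the 14 stem and early progenitor transcription factors tested 6 rose and 2 fell, with a median of -0.01 against -0.13 over all genes; Sox4 (1.33) and Runx1 (1.47) were the highest, and Ikzf1 (-0.87) and Sfpi1 (-0.63) fell. With RLE size factors 6 rose and none fell (median 0.10). The calls of Sfpi1 and Ikzf1 were lost in 11 and 3 of 16 fits that left out 1 pool. Hhex (1.14), of the Gata partner list, rose as well. Hdc, the histidine decarboxylase of basophils and mast cells, rose by 1.46. S phase genes fell for 10 of 23 tested with TMM and for 7 with RLE.

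Single classes of unsorted cells were compared in 1 fit over exclusive classes. Against 1031 cells past the Car1 limit alone, with 16 pools, 732 of 5803 genes were higher (12.6%) and 1457 lower (25.1%); RLE size factors gave 1068 and 548, as the median log2 ratio of all genes moved from -0.21 to 0.08. Hdc (log2 ratio 4.64), Ifitm1 (3.81), Plcb2 (3.80), Lmo4 (3.75) and Vim (3.46) led, and Crip2 (-2.97), Ccne1 (-2.88), Cited4 (-2.82), Cldn13 (-2.75) and Hba-a2 (-2.72) were lowest. The limit on Car1 fixes part of the direction of red cell genes here too. These 1031 cells include the 283 Apoe Gata2 cells past the Car1 limit that were compared above.
The 45 cells within the limits with 2 or more Flt3 UMIs reached the minimum of 5 cells in 3 pools, where 34 genes were higher (0.586%) and 35 lower (0.603%). By plate, with at least 3 cells, 342 of 6438 genes were higher (5.31%) and 129 lower (2.0%). Irf8 stood at 26.6 CPM in Apoe Gata2 cells and 871 CPM in the Flt3 cells over 8 plates (log2 ratio -4.98), and Gata1 at 327 CPM and 10.5 CPM (4.59). Optn, Samd14 and Dach1, the highest by fitted ratio, had no UMI in the Flt3 cells.

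Cells over the Pf4 limit numbered 21 and never reached 5 in a pool, so they were compared over 4 plates only, where 163 genes were higher (2.53%) and 57 lower (0.885%). Vwf stood at 13.5 CPM in Apoe Gata2 cells and 495 CPM in the Pf4-high cells (log2 ratio -5.33), and Sdpr, a caveola protein found in platelets, at 24.4 and 422 CPM (-4.03). F10 (-5.09), Gucy1a3 (-4.54) and Il12a (-4.12) were the other lowest. The 5 with the highest fitted ratio, Atp1b2, Fut7, Spns3, Cebpa and Cdk2ap1, had no UMI in the Pf4-high cells.

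Surface CD34 and FcgR had been recorded for the sorted cells and were not used to choose them. Pool medians of CD34 intensity averaged 211 ± 83.4 (SD, n = 16 pools) in Apoe Gata2 cells and 124 ± 68.8 in all other unsorted cells, higher in 15 of 16 pools (exact sign-flip permutation test, two-sided, Benjamini-Hochberg adjusted over 8 comparisons, p = 0.000122). Replicates 3, 4, 15 and 16 stood apart, with CD34 medians of 248 to 399 in Apoe Gata2 cells against 77 to 219 in the other 12 pools; without them the averages were 172 and 86.4. The others within the limits averaged 181 ± 74.3, lower than Apoe Gata2 cells in 11 of 16 pools (exact permutation test, adjusted p = 0.00985); with cells of at least 1000 UMIs this call was lost (adjusted p = 0.135). Apoe Gata2 cells past the Car1 limit averaged 55.1 ± 20.3, lower in 16 of 16 pools (exact permutation test, adjusted p = 8.14e-05), where the unadjusted p of 3.05e-05 is the smallest the test can give. Elane-high cells averaged 287 ± 72.6, above Apoe Gata2 cells in 15 of 16 pools (exact permutation test, adjusted p = 0.000146). So surface CD34 was ordered Car1-high, Apoe Gata2, Elane-high, while Cd34 transcripts stood at 20.7, 181 and 234 CPM in the same 3 sets. The place of the others within the limits was not settled. Their surface CD34 was below that of Apoe Gata2 cells, a call lost with cells of at least 1000 UMIs. Their Cd34 transcripts stood at 259.9 CPM, but the difference from Apoe Gata2 cells did not pass in the first comparison.

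FcgR, the Fc gamma receptor that separates granulocyte-monocyte from erythroid progenitors, averaged 320 ± 151 in Apoe Gata2 cells and 91.1 ± 39.7 in those past the Car1 limit, higher in 16 of 16 pools (exact permutation test, adjusted p = 8.14e-05). Elane-high cells averaged 1643 ± 484, above Apoe Gata2 cells in all 16 pools (exact permutation test, adjusted p = 8.14e-05). All other unsorted cells averaged 214 ± 66.2, lower in 12 of 16 pools (exact permutation test, adjusted p = 0.0104), a call lost with plates as units (adjusted p = 0.0714). The others within the limits averaged 241 ± 110, lower in 9 of 16 pools, which did not pass (exact permutation test, adjusted p = 0.0671); it passed when the mean of log10 intensity was compared (adjusted p = 0.000488).

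**Figure D5:**
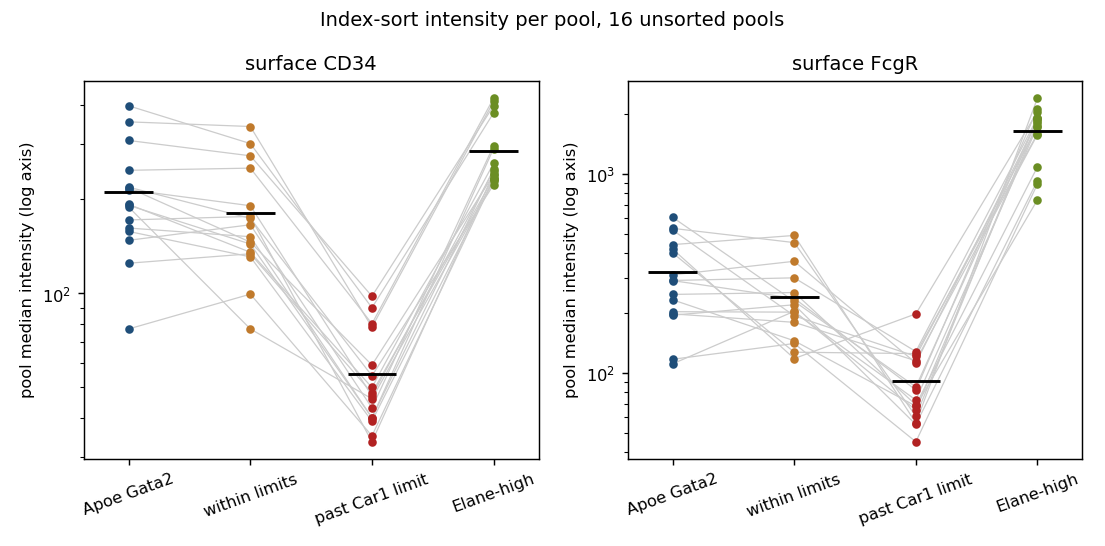
Pool medians of index-sort fluorescence intensity (y axis, log scale) for surface CD34 and FcgR in 4 sets of cells of the 16 unsorted pools; points are pools, grey lines join a pool and black bars are means over pools. Apoe Gata2 cells lie above the cells past the Car1 limit in all 16 pools for both proteins and below Elane-high cells for FcgR in all 16.

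The same gene rule was applied to the sorted gates. In the CD41 gate the 94 cells meeting it stood at 3090 CPM of Apoe and 815 CPM of Gata2, near the unsorted cells, as was Srgn (3103 against 3078 CPM), but the 59 other cells within the limits were alike for several of the named genes: Gpr56 stood at 1808 CPM against 1828 CPM and Nfe2 at 796 against 895 CPM. Of the 17 named genes of the first comparison, 12 had the same direction there. Some of these were near ties, such as Mfsd2b at 565 against 563 CPM and Tmem14c at 473 against 486 CPM. In the Irf8-GFP gate the 57 cells had a median of 3933 UMIs, stood at 706 CPM of Apoe and 275 CPM of Gata2, and 31 had no Gata2 UMI. Their Irf8 stood at 564 CPM, their Mfsd2b at 0, and 11 of the 17 genes had the same direction, with Prdx2 at 469 CPM on both sides. The share over all genes was not computed for either gate, so no conclusion is drawn from these counts. At that depth 3 UMIs of the pair are a smaller part of a cell's UMIs.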

How the data were processed

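MARS-seq UMI counts per gene and well were used as the authors deposited them, as raw counts of 27297 gene rows in 10368 wells, and surface CD34 and FcgR as the fluorescence intensity in the authors' deposited well table. The build mm9 and bcl2fastq 2.15.0.4 are named per the submitters' processing notes, which name no aligner. Of the rows, 2109 (7.73%) join several symbols. In 18 pools, none unsorted, label and well table name different groups, and these were not used. Wells were sorted to hold 1 cell, so no doublet caller was run.

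UMIs were summed per pool and set of cells and tested with edgeR 4.0.16 (R 4.3.3; TMM, filterByExpr, quasi-likelihood, pool as block because both sides share it); the 7 rule genes were left out of counts of calls. Library sizes were set to all UMIs after a first run that summed filtered genes only. DESeq2 1.42.0 was an alternative. On simulated data the first comparison (within the limits) recovered 98% of 2-fold changes among 1253 genes, that with Car1-high cells 100% among 671, and that with all others 70% among 4766; 1.98, 1.48 and 8.6% of the calls were false, the last above the 5% aimed at. The simulated counts had no pool effect and no choice of cells by genes of the same wells, so these rates need not hold for the data. Exact permutation tests used scipy 1.17.1. Binomial intervals are exact, at 95%, and cover counting error only.

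Named genes are the 10 highest and 10 lowest log2 ratios (5 each for classes and for the added comparison) with an adjusted p under 0.05, at least 100 CPM in the higher side, 1 symbol and the same direction in every pool; 7 qualified as lower in the first comparison. Some single-gene results are not reported here. Cells and gene lists were chosen with earlier results of these data known, and the comparison with Car1-high Apoe Gata2 cells was added after the data were seen.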

Additional observations from a re-analysis of the deposited data

Results flagged for a closer look

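The share of Apoe Gata2 cells was 11.4% on 1 of the 8 unsorted plates, which holds replicates 9 and 10 (11.8 and 11.0%), set apart from the other 7 plates by a gap that Dixon's test passes at 95%. Chance passes about 1 group in 20. Leaving out either replicate changed no count of genes by over 1.5 times.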

How the results depend on the processing

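Against others within the limits (132 genes higher, 85 lower), leaving out 1 pool at a time gave 117 to 142 higher and 67 to 85 lower. The pair at 5 or more UMIs, in 4 pools, gave 27 and 14, the smaller sequencing batch 33 and 20, and thinning to 1000 UMIs 8 and 11. Fewer were lower with a minimum of 1000 UMIs (41, or 52 with pools of 3 or more cells) and in the larger batch (55). With no filter on low counts 1126 were lower.

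Against all other unsorted cells (298 and 551), leaving out 1 pool gave 252 to 303 and 501 to 611. The pair at 5 or more UMIs gave 67 and 146, and 162 higher with pools of 3 or more cells. The smaller batch gave 84 and 133, a minimum of 1000 UMIs 158 and 287 (189 higher with 3 or more cells), and thinning 38 and 155. DESeq2 called 265 lower, RLE size factors 341 and no filter 1649.

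Against Apoe Gata2 cells past the Car1 limit (91 and 64), leaving out 1 pool gave 70 to 98 and 51 to 71. DESeq2 called 40 lower, no filter gave 200 and 456, plates as units 147 and 105, and thinning 7 and 3. Against the Car1-high class DESeq2 gave 1193 and 527, RLE 548 lower, a minimum of 10 cells 762 lower and plates 967 lower. Against Flt3 cells DESeq2 gave 8 and 53, RLE 20 higher and plates 342 and 129.

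Without the pool as a block, which pairs both sides of 1 pool, the first comparison gave 105 and 64, that with all other cells 270 and 490, that with cells past the Car1 limit 79 and 48; for Flt3 cells it gave 23 and 28.

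The direction reversed for Atpif1 (-0.38) and Mcm6 (-0.36) within the limits with no filter, and, against all other cells, for Etv6 after thinning (-0.20) and for Zfpm1 with the pair at 5 or more UMIs (-0.069) or no filter (-0.014). The share averaged 10.1% with the pair at 2 or more, 4.44% at 5 or more and 3.68% after thinning. CD34 against others within the limits had a difference of 31.9 (adjusted p = 0.135, exact permutation test) at 1000 or more UMIs. FcgR against all others differed by 95.1 over plates (adjusted p = 0.0714, exact), and against others within the limits by 0.31 in log10 intensity (adjusted p = 0.000488) and by 96.2 at 1000 or more UMIs (adjusted p = 0.0288, exact). Causes of these changes were not tested.

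Minimums of 3 cells, cells past the Car1 limit and class fits over plates were chosen after seeing the data; thinning with 10 or more cells left no pool, and the Pf4 class had none. With 1 mouse identifier, no difference between animals can be measured. At a median of 1365.5 UMIs per cell, most genes of the platelet, lymphoid and macrophage lists could not be tested within the limits.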
